A study of Mus musculus with 3 samples.

Results

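The enzymes of mitochondrial fatty acid oxidation were followed at the level of their transcripts in stable BCR::ABL1+ leukemic cell lines that carry a kinase inactive CDK6. The 10 genes were chosen by name, with earlier results of these data known. They are *Cpt1a*, *Cpt2*, *Acadm*, *Acadl*, *Acadvl*, *Hadha*, *Hadhb*, *Etfa*, *Etfb* and *Etfdh*, and all 10 were found among the 50686 genes of the count table.

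The samples are 3 lines of genotype K43M, named *Cdk6* KM/KM here, in which both *Cdk6* alleles encode the kinase inactive protein. Each line grew out separately from bone marrow of C57BL/6 mice after retroviral transduction with BCR::ABL1 (p185), the fusion kinase that drives this leukemia, and the labels call the cells Pre/Pro-B-cells. All 3 lines share the oncogene, the homozygous mutation and the culture in RPMI with serum, and they are outgrown cultures rather than primary leukemia. The study set them against lines with wildtype CDK6 and without CDK6, which are not analysed here. Every comparison below is therefore between genes, or between lines of 1 genotype. The age and the number of mice behind the lines are not given in the sources used here.

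Fatty acids are burned in the mitochondrial matrix, where each round of beta-oxidation shortens an acyl-CoA and yields acetyl-CoA together with reduced electron carriers. Long-chain acyl groups enter the matrix as carnitine esters, which CPT1 makes at the outer membrane and CPT2 turns back into acyl-CoA at the inner membrane. Acyl-CoA dehydrogenases catalyse the opening step, the trifunctional protein carries out the remaining steps for long chains, and the electron transfer flavoprotein hands the electrons of the dehydrogenases to ubiquinone through ETFDH. Lymphoid cells use the pathway beside glucose and glutamine.

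Libraries held 21569845, 19633463 and 25773221 counts in lines 1, 2 and 3. Levels are given as CPM, the counts scaled to library size after normalization by the trimmed mean of M values (TMM), and a count of 0 allows up to 3 counts, or 0.118 to 0.152 CPM. Of 12 pre/pro-B markers, 11 reached at least 1 CPM in each line, with a summed level of 4065 to 4503 CPM and only *Dntt* below the limit. None of the listed T and NK, erythroid, megakaryocyte or stromal markers did, and of 6 myeloid markers only *Lyz2* did, at 2.42 CPM. The 4 stromal and adipocyte markers were at 0 in every line. *Cdk6* itself had 450, 334 and 239 CPM, values that do not show the mutated base.

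All 10 genes were expressed in all 3 lines. In such bulk libraries, fewer cells that express a gene and less RNA per cell cannot be told apart. Together the 10 genes held 0.0726% ± 0.00435 of the counts (SD, n = 3), with a summed level of 771, 694 and 713 CPM. Each gene had at least 1 CPM in each line and passed the filter of 10 counts over the lines, so none was lost to low counts. *Hadha* alone held 28.7% ± 5.62 of the counts of the 10 genes, whereas *Hadhb*, the gene of its partner subunit, had the lowest level per kilobase of annotated exon. By role, the acyl-CoA dehydrogenases held 31.8% of these counts, the trifunctional protein 30.4%, the electron transfer genes 22.9% and the carnitine shuttle 14.8%.

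Most of the genes differed between lines, but so did most genes of the table. By a chi-square test of the 3 counts of each gene, adjusted by Benjamini-Hochberg over 13974 genes, 7 of 10 differed by more than counting noise, beside 66.8% of all genes tested and 80.1% of the genes with a mean of at least 5 CPM. The 3 that did not pass the test are the electron transfer genes *Etfa*, *Etfb* and *Etfdh*. The count rests on lines 1 and 3, since it was 4 without line 1 and 3 without line 3, beside 54.3% and 47.1% of the genes tested in those pairs. This test compares libraries with counting noise and not conditions. With the fold between the highest and the lowest line set at 1.5 or more, a value chosen after the data were seen, 3 of 10 genes passed (*Cpt1a*, *Hadha* and *Hadhb*), beside 22.9% of the 9389 genes with a mean of at least 5 CPM. Nothing is read from these shares about the list, since both are close to what the table shows as a whole.

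**Figure D1:**
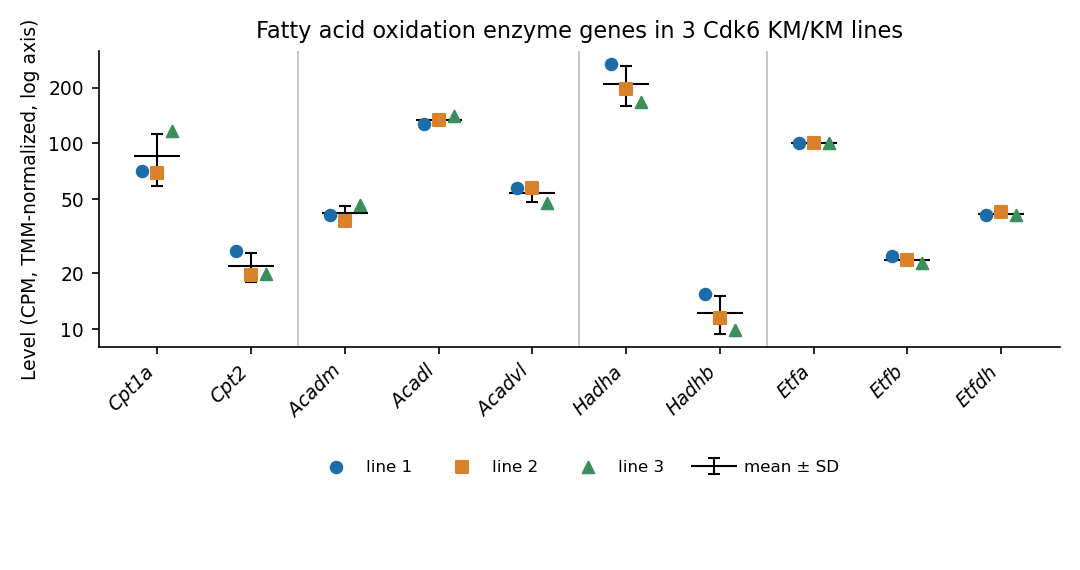
TMM-normalized level in CPM (log axis) of the 10 fatty acid oxidation enzyme genes in the 3 *Cdk6* KM/KM lines, ordered by role (carnitine shuttle, acyl-CoA dehydrogenases, trifunctional protein, electron transfer). Points are single lines, the horizontal bars the mean and the whiskers the SD. Points of *Etfa* lie on each other near 101 CPM, whereas those of *Cpt1a* run from 69.4 to 116 CPM and those of *Hadha* from 167 to 267 CPM.

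Shown here are 4 stretches of sequence around RefSeq starts that the results refer to. The gene spans given below come from other gene models, whose starts can differ from those of RefSeq. By its span the *Etfdh* stretch lies inside the gene, although it is upstream of the RefSeq start. *Hadha* and *Hadhb* lie head to head, and the stretch between their starts is shown because both genes differed between lines in the same order. The genes around them showed this order too, as given below, and any role of the stretch was not tested. The other stretches surround the matches to the NRF-1 core described with the electron transfer genes. Sequences are from RefSeq (GRCm38.p6, the assembly also called mm10), written 5′ to 3′ on the strand of the named gene. In the *Hadhb* window, chr5:30155003-30155302 on the plus strand, capitals mark the 85 bases between the starts of the pair by gene span, not by RefSeq. In the others, chr3:153944768-153944827 for *Acadm*, chr9:55512315-55512374 for *Etfa* and chr3:79628860-79628921 for *Etfdh*, all on the minus strand, capitals mark the NRF-1 core, which the *Etfdh* stretch holds on both strands in overlap.
Hadhb: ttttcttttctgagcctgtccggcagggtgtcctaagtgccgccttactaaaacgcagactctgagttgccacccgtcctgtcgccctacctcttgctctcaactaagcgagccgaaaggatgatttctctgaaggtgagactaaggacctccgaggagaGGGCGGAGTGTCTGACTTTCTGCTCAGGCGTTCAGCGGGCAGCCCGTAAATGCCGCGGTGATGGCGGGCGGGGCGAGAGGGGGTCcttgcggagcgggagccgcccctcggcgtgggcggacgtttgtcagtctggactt
Acadm: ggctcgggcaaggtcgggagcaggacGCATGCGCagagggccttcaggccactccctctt
Etfa: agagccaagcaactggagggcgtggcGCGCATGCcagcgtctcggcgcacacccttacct
Etfdh: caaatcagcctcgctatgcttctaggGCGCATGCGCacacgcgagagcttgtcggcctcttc

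The carnitine shuttle was read from *Cpt1a* and *Cpt2*. *Cpt1a* (ENSMUSG00000024900.4, mm10 chr19:3322334-3385733, plus strand) encodes the liver-type CPT1, the step at which malonyl-CoA restrains fatty acid entry. It had 1544, 1370 and 2963 counts, or 71.1, 69.4 and 116 CPM in lines 1, 2 and 3 (85.6 ± 26.6, SD, n = 3). Line 3 stood 1.68-fold above line 2, and lines 1 and 2 lay close together. *Cpt1a* had the widest range of the 10 genes, 0.74 on the log2(CPM + 1) scale, and its SD lay at the 86.0th percentile of genes with a mean of at least 5 CPM. Without line 3 the difference no longer passed the test (chi-square, adjusted p = 0.578).

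*Cpt2* (ENSMUSG00000028607.16, chr4:107903981-107923610, minus strand), the gene of the inner membrane enzyme, had 569, 387 and 502 counts. This was 26.2, 19.6 and 19.7 CPM (21.8 ± 3.79), so that line 1 was above the other lines, which lay at nearly the same level. The call rested on line 1 and was lost without it (chi-square, adjusted p = 0.961). Per kilobase of exon, the ratio of *Cpt1a* to *Cpt2* was 0.849, 1.11 and 1.85 in the 3 lines, so the order of the pair turned between line 1 and the other lines. The ratio also depends on the length used, and with the transcript of the longest coding sequence it was 1.49, 1.95 and 3.24, with *Cpt1a* above *Cpt2* in each line.

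*Cpt1a* was the main CPT1 gene of these cells. *Cpt1b*, the muscle form, had 4, 4 and 5 counts, and *Cpt1c*, the brain form, 5, 2 and 2 counts. *Cpt1a* held 99.6% of the counts of the 3 genes. Of the 50-base stretches of the main *Cpt1b* transcript, 93.0% also occur in *Gm44502*, a gene on the same strand. In the gene models used for lengths it covers 81.4% of the exon bases of *Cpt1b*. *Gm44502* was not found in the count table, and whether this overlap affected *Cpt1b* counts was not tested.

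Among the acyl-CoA dehydrogenases, the gene of the long-chain enzyme had the highest level per kilobase in every line. *Acadl* (ENSMUSG00000026003.5, chr1:66830839-66863277, minus strand) had 2757, 2649 and 3598 counts, or 127, 134 and 141 CPM (134 ± 7.12). The highest line was only 1.11-fold above the lowest, yet the counts differed by more than counting noise at this depth. That call was lost without line 1 (chi-square, adjusted p = 0.0829) and without line 3 (adjusted p = 0.102).

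*Acadm* (ENSMUSG00000062908.12, chr3:153922357-153944632, minus strand), the gene of the medium-chain enzyme, had 898, 757 and 1185 counts. Its level was 41.4, 38.3 and 46.5 CPM (42.1 ± 4.13), lowest in line 2 and highest in line 3. The call was lost without line 3 (chi-square, adjusted p = 0.188).

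*Acadvl* (ENSMUSG00000018574.14, chr11:70010183-70015411, minus strand) encodes the very long-chain enzyme of the inner membrane. It had 1243, 1138 and 1215 counts, or 57.3, 57.6 and 47.7 CPM (54.2 ± 5.64). Here line 3 was the low line, opposite to *Acadm* and *Acadl*, and without it the call was lost (chi-square, adjusted p = 0.946).

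The 3 dehydrogenase genes thus did not move together between lines, and their sum varied little, with 0.0227%, 0.0231% and 0.0233% of all counts. Per kilobase of exon, *Acadl* exceeded *Acadm* 6.25 ± 0.504-fold and *Acadvl* 3.35 ± 0.538-fold (SD, n = 3), and it was above both in all 3 lines. With the transcript of the longest coding sequence the ratios were 3.42 and 2.83. The values of *Acadvl* carry a limit, since 42.9% of its exon bases overlap *Dvl2* on the opposite strand and the strand setting of the counting is not given in the sources used here. *Dvl2*, a signaling gene of the Wnt pathway, had 38.2, 48.5 and 43.5 CPM, with line 1 as the lowest, whereas line 3 was the lowest for *Acadvl*.

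Short-chain and branched-chain relatives were expressed as well. *Acads*, the short-chain dehydrogenase, had 2244, 1762 and 2069 counts (91.3 ± 11.2 CPM) and was above *Acadm* in each line per kilobase, by 3.78-fold on average with the union of exons, 2.40-fold with the main transcript and 2.31-fold with stretches found in no other gene. *Acadsb*, which acts on short branched chains, had 229, 210 and 254 counts (10.4 ± 0.362 CPM) and did not pass the test between lines.

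The trifunctional protein showed the largest gap between partner genes. *Hadha* (ENSMUSG00000025745.11, chr5:30118304-30155162, minus strand) encodes the alpha subunit with the hydratase and the hydroxyacyl-CoA dehydrogenase activity. It had 5793, 3870 and 4245 counts, or 267, 196 and 167 CPM (209.9 ± 51.5, SD, n = 3). *Hadhb* (ENSMUSG00000059447.13, chr5:30155248-30184593, plus strand), the gene of the thiolase subunit, had 335, 226 and 253 counts, or 15.4, 11.4 and 9.93 CPM (12.3 ± 2.84). Both were highest in line 1 and lowest in line 3, with 1.60-fold and 1.55-fold between these lines, and both passed the test. Without line 1, *Hadhb* no longer did (chi-square, adjusted p = 0.183).

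The ratio of *Hadha* to *Hadhb* was nearly the same in each line, although the protein holds both subunits in equal number. Per kilobase of exon it was 13.1, 12.9 and 12.7 (12.9 ± 0.198). The size of the ratio depends on the length used. Of the 50-base stretches of the main *Hadhb* transcript, 62.4% occur in other genes, 61.5% in the processed pseudogene *Gm13910* on chromosome 2, against 0.655% for *Hadha*. With the length limited to stretches found in no other gene, a definition added after the data were seen, the ratio was 3.26 ± 0.04997. *Gm13910* had 19, 17 and 14 counts. How reads with several matches were treated is not given in the sources used here, so the level of *Hadhb* is uncertain. Its pattern between lines matched that of *Hadha*, but this does not bear on that doubt, since the genes around them showed it too.

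The order of lines of *Hadha* and *Hadhb* was also that of the genes around them. On the log2(CPM + 1) scale, *Hadha* deviated from its mean by 0.37, -0.07 and -0.30 in lines 1, 2 and 3, and *Hadhb* by 0.33, -0.07 and -0.26. The 64 other genes with a mean of at least 5 CPM within 5 Mb of the start had median deviations of 0.27, -0.06 and -0.22, and the 616 such genes of the whole chromosome 5 had 0.27, -0.07 and -0.19. After subtraction of the neighbours, the range between lines was 0.18 in place of 0.68 for *Hadha* and 0.09 in place of 0.59 for *Hadhb*. What moved the chromosome was not tested.

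*Cpt1a* showed no such neighbourhood. Its deviations were -0.22, -0.26 and 0.48, whereas 114 neighbours spanned a range of 0.09, and after their subtraction 0.70 of the range of 0.74 was left. For *Cpt2*, 38 neighbours spanned 0.06 and the range of the gene was 0.40 before and 0.46 after subtraction. Around the other members the neighbours spanned 0.03 to 0.15, with the widest value at *Etfdh*, which had only 12 neighbours.

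**Figure D2:**
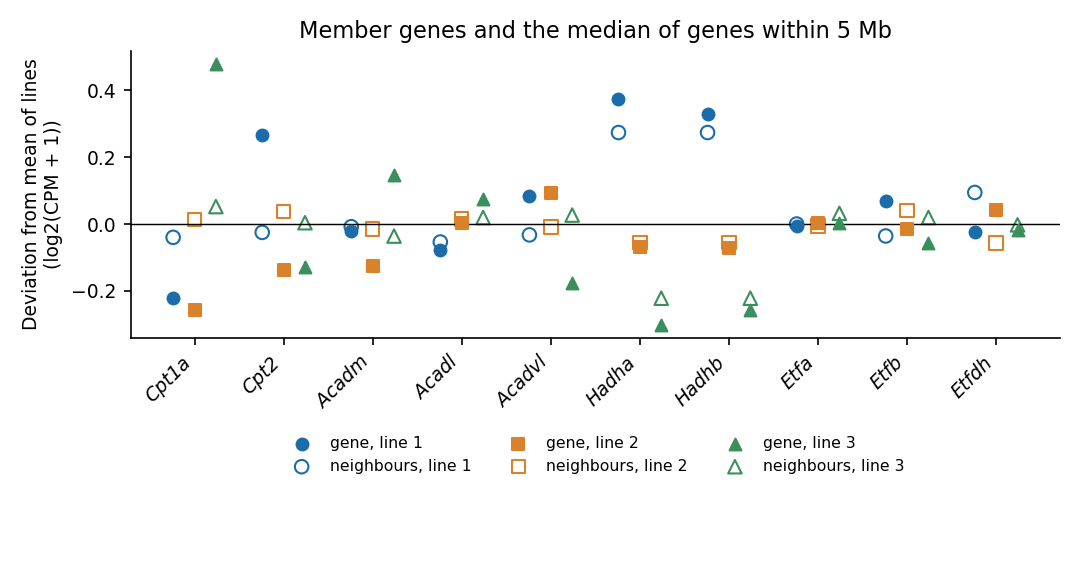
Deviation of each gene from its mean over the lines (filled symbols) and median deviation of the other genes within 5 Mb of its start (open symbols), on the log2(CPM + 1) scale, for lines 1, 2 and 3. For *Hadha* and *Hadhb* the open symbols follow the filled ones, with neighbours at 0.27, -0.06 and -0.22. For *Cpt1a* the neighbours stay within a range of 0.09 while the gene spans 0.74.

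The electron transfer genes had the smallest SD between lines of the 10, before any subtraction of neighbours. After that subtraction their ranges were 0.04 for *Etfa*, 0.18 for *Etfb* and 0.22 for *Etfdh*. Those of the other genes ran from 0.08 for *Acadl* to 0.70 for *Cpt1a*. *Etfa* (ENSMUSG00000032314.14, chr9:55454508-55512243, minus strand), the alpha subunit of the flavoprotein, had 2177, 1994 and 2570 counts. In CPM these were 100.3, 101 and 100.9 (101 ± 0.385), a coefficient of variation of 0.382%. Its SD lay at the 0.128th percentile of genes with a mean of at least 5 CPM, so that nearly all such genes varied more. Such closeness of 3 values is a description, since counts of this size usually scatter more by counting noise alone.

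*Etfb* (ENSMUSG00000004610.4, chr7:43444083-43457800, plus strand), the beta subunit, had 541, 463 and 580 counts, or 24.9, 23.5 and 22.8 CPM (23.7 ± 1.10). *Etfdh* (ENSMUSG00000027809.14, chr3:79603788-79629500, minus strand), which passes the electrons on to ubiquinone in the inner membrane, had 889, 848 and 1048 counts, or 41.0, 42.96 and 41.1 CPM (41.7 ± 1.11). The highest line exceeded the lowest by 1.09-fold for *Etfb* and by 1.05-fold for *Etfdh*. Of the genes that passed the test, *Acadm* and *Cpt2* had 757 to 1185 and 387 to 569 counts, with larger folds of 1.21 and 1.34. *Acadl* passed at 1.11-fold with 2649 to 3598 counts. What part depth had in the calls of *Etfb* and *Etfdh* was not tested.

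The ratio of *Etfa* to *Etfb* was 2.698 ± 0.132 per kilobase of exon, although the flavoprotein holds 1 of each subunit. *Etfb* shares 58.2% of its exon bases with *Gm45233* on the same strand, listed at 0 counts in each line, and 67.3% of the 50-base stretches of its main transcript occur there. With stretches found in no other gene as the length, the ratio was 0.911 ± 0.0447 and its direction turned. The order of this pair thus depends on the length used. Whether reads of the shared exons were counted for *Etfb* was not tested. If they were left out, its levels per kilobase of exon and of main transcript are too low. *Etfa* exceeded *Etfdh* 9.89 ± 0.234-fold per kilobase of exon and 4.13 ± 0.0978-fold per kilobase of the main transcript.

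The NRF-1 core, the letters GCGCATGC on either strand, was searched in the RefSeq window of 250 bases before to 50 bases after each start, since the study examined NRF-1, a regulator of nuclear genes for mitochondrial proteins. It occurred in 3 of 10 windows (*Acadm*, *Etfa* and *Etfdh*, shown above), beside 2.73% of all 32544 windows. Other motifs were the SP1 box GGGCGG in 7 windows against 35.9% of all windows, the CCAAT box of NF-Y in 4 against 37.4%, the nuclear receptor motif AGGTCA in 3 against 16.2%, and the ETS core CCGGAAG in 1 (*Cpt2*) against 8.91%. No matches of different motifs overlapped. Member windows had a GC content of 50.7% to 70.3%, beside a median of 53.0% over all windows, and this bears on the GC-rich motifs. A match describes the letters and not a bound site, and the RefSeq windows of *Hadha* and *Hadhb* share 228 bases.

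Compared per kilobase of annotated exon, the genes fell into separate steps. *Acadl* was on top with 66.9 CPM per kilobase, followed by *Etfa* with 54.9, and the values of these neighbours did not overlap over the lines. *Hadha* (24.04), *Etfb* (20.4) and *Acadvl* (20.2) formed the next step, in which neighbours overlapped. The place of *Etfb* is uncertain, since reads of exons shared with *Gm45233* may be missing. *Cpt1a* (11.2), *Acadm* (10.8) and *Cpt2* (9.14) formed another, again with overlap between neighbours. *Etfdh* (5.55) and *Hadhb* (1.86) lay below, each apart from the gene above it. With 3 lines an exact paired test between 2 genes cannot go below p = 0.25, so the order is a description.

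The length used moves this order. With the transcript of the longest coding sequence, *Etfa* (72.4) was above *Acadl* (70.0) and *Etfdh* (17.5) above *Cpt2* (9.21). The annotated exons of *Etfa* cover 1835 bases and its main transcript 1392, against 2005 and 1916 for *Acadl*, and those of *Etfdh* cover 7505 bases and its main transcript 2377, against 2391 and 2372 for *Cpt2*. With stretches found in no other gene, *Etfb* was on top (85.9) and *Hadhb* (16.3) passed *Cpt2* (9.40). All counts of a gene are divided by this length, so its level is too high if reads of shared sequence were counted. *Acadl* and *Etfa* stayed among the highest 3 genes under each length. *Cpt2*, *Etfdh* and *Hadhb* were the lowest 3 under each length, in changing order.

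**Figure D3:**
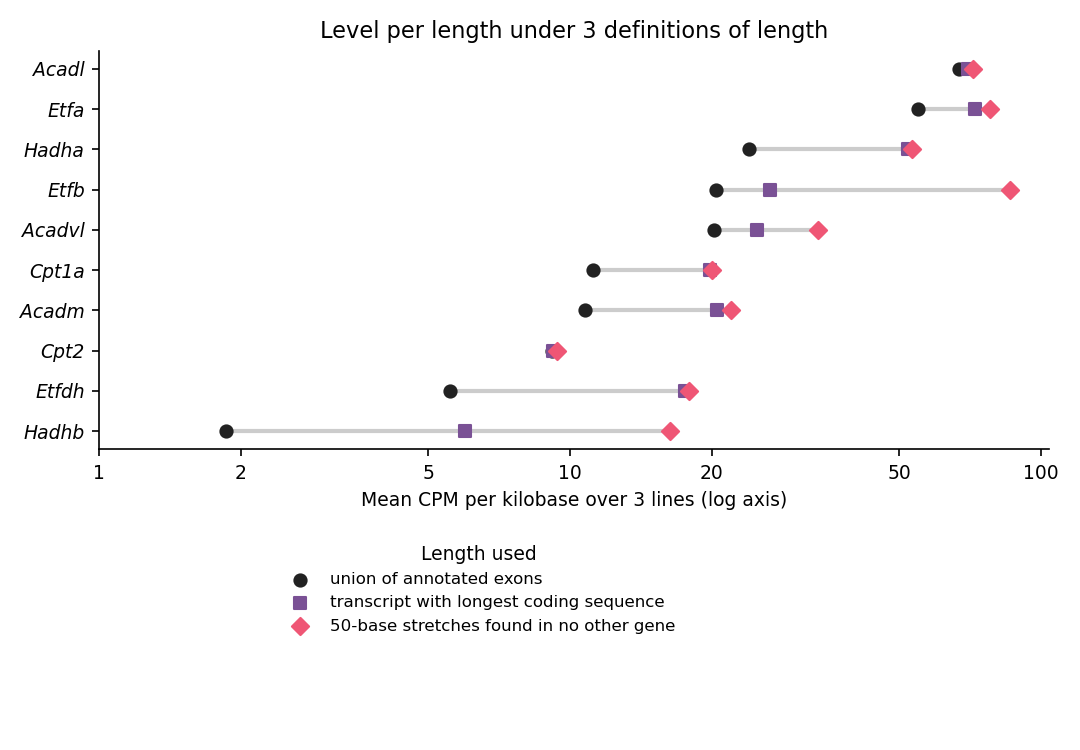
Mean level over 3 lines in CPM per kilobase (log axis) for the 10 genes under 3 definitions of gene length. The grey bar joins the values of a gene. *Hadhb* runs from 1.86 to 16.3 and *Etfb* from 20.4 to 85.9, whereas *Acadl* and *Cpt2* hardly move.

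The spread between lines was close to that of other genes of this level. The median SD on the log2(CPM + 1) scale was 0.14 over the 10 genes, beside 0.17 over all 13974 genes kept and 0.15 over the 9389 genes with a mean of at least 5 CPM. Within the list it ran from 0.005462 for *Etfa* to 0.42 for *Cpt1a*. The median biological coefficient of variation estimated with edgeR was 0.191, beside 0.279 and 0.188 in the same background sets. No line was high or low throughout. Line 1 was the highest for 4 genes (*Cpt2*, *Hadha*, *Hadhb* and *Etfb*), line 2 for 3 (*Acadvl*, *Etfa* and *Etfdh*) and line 3 for 3 (*Cpt1a*, *Acadm* and *Acadl*).

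**Figure D4:**
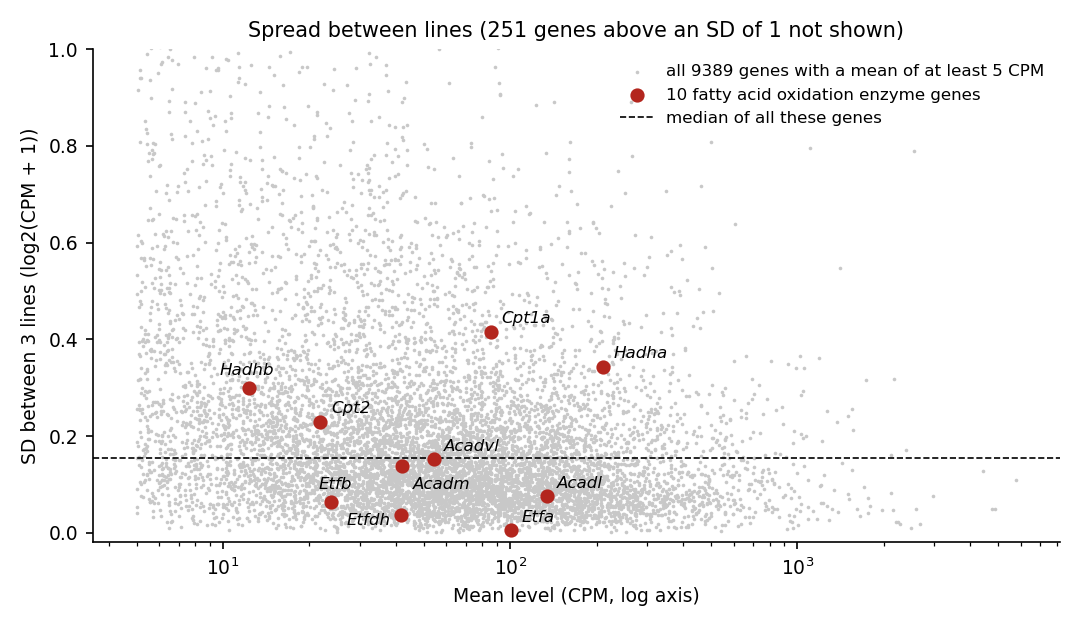
SD between the 3 lines on the log2(CPM + 1) scale against the mean level in CPM (log axis), with all 9389 genes of at least 5 CPM in grey and the 10 fatty acid oxidation enzyme genes in red. The dashed line is the median of all these genes. Those above it are 4 (*Cpt1a*, *Hadha*, *Hadhb* and *Cpt2*), and 251 genes above an SD of 1 are not shown.

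The wider pathway was read from 73 other genes in 8 lists. Of these, 50 reached at least 1 CPM in each line, and of 54 tested, 42 differed between lines, beside 66.8% of all genes tested and 80.1% of genes at a mean of 5 CPM or more. Of the 47 with a mean of at least 5 CPM, 16 had a highest line at least 1.5 times the lowest, beside 22.9% of all such genes. The median SD of the 47 was 0.17, beside 0.15. Against the same share of 66.8%, the genes that differed were 6 of 9 tested for the carnitine shuttle and activation, 12 of 16 for other mitochondrial beta-oxidation enzymes, 3 of 4 for ETF partners and 4 of 5 for fatty acid uptake and binding. They were 7 of 8 for peroxisomal beta-oxidation, 3 of 3 for malonyl-CoA control, 5 of 6 for regulators and 2 of 3 for ketone bodies. Nothing is read from such counts in short lists. In each list, the genes named are the highest per kilobase of the union of exons, the most variable and those with at most 3 counts in every line.

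In the carnitine shuttle and activation list, 8 of 11 genes were detected, which stands for a level of 1 CPM or more in all lines. The acyl-CoA synthetase *Acsl5*, which activates long-chain fatty acids, had the highest level, 108.5 ± 4.97 CPM per kilobase, above that of *Acadl*. *Crat*, which moves acetyl groups on carnitine, varied most, with 14.2, 13.7 and 40.4 CPM and line 3 on top as for *Cpt1a*. *Acsl6* was at 0 counts.

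Of the 17 other mitochondrial beta-oxidation enzymes, 16 were detected. *Acat1*, the thiolase that forms and splits acetoacetyl-CoA, was the highest at 55.3 ± 3.89 CPM per kilobase of the union of exons. With the main transcript it stood at 61.1, below *Hsd17b10*, a dehydrogenase of branched and short chains, with 66.9. With stretches found in no other gene the values were 62.0 and 70.4. *Hadh*, the hydroxyacyl-CoA dehydrogenase for shorter chains, was steady at 98.5, 95.8 and 100.2 CPM. The enoyl-CoA isomerases, which prepare unsaturated fatty acids for oxidation, differed widely in level from each other. *Eci2* had 18.8, 5.07 and 24.7 CPM and was lowest in line 2, whereas *Eci1* had only 2, 1 and 1 counts. *Decr1*, the reductase of the same branch, was named after its values were seen, and with 20.3, 6.03 and 16.8 CPM it was also lowest in line 2.

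ETF partners, which supply or modify the flavoprotein, were detected for 4 of 6 genes. The mitochondrial folate and FAD carrier *Slc25a32* was the highest at 8.08 ± 0.538 CPM per kilobase, but with stretches found in no other gene it was at 8.39, below *Flad1*, the FAD synthase, at 13.3. *Etfrf1* had the widest range, 0.34 on the log2(CPM + 1) scale, and *Dmgdh*, a dehydrogenase that feeds electrons into the flavoprotein, was at 0. Genes of fatty acid uptake and binding were detected for 4 of 10. *Fabp5* had 18.6 ± 1.79 CPM per kilobase of the union of exons. Its level was 67.2 with the main transcript and 89.7 with stretches found in no other gene. *Cd36*, the fatty acid translocase, varied most, with 11.5, 30.9 and 19.4 CPM. *Slc27a2*, *Slc27a5*, *Slc27a6*, *Fabp3* and *Fabp4* had at most 3 counts in every line.

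In peroxisomes, which shorten very long chains, 7 of 11 genes were detected. *Hsd17b4* was the highest at 33.0 ± 4.27 CPM per kilobase. *Acox2*, *Acaa1b* and *Abcd2* were at 0. All 3 malonyl-CoA genes were detected. *Acaca*, the carboxylase that makes malonyl-CoA, had 4.798 ± 0.405 CPM per kilobase of the union of exons. Its level was 8.61 with the main transcript and 18.2 with stretches found in no other gene. *Mlycd*, which removes malonyl-CoA, had 9.35, 3.24 and 10.9 CPM with its low value in line 2.

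Among regulators, 5 of 11 were detected. *Ppara*, *Pparg*, *Rxrg*, *Ppargc1a* and *Esrrg* were at 0 counts in every line, a limit of 0.118 to 0.152 CPM. The nuclear receptor partner *Rxrb* was the highest at 22.9 ± 2.06 CPM per kilobase, and *Rxra* varied most, with 13.9, 8.51 and 25.7 CPM. Of the ketone body genes, 3 of 4 were detected. *Oxct1*, which activates acetoacetate on its way back to acetyl-CoA, stood at 118 ± 9.73 CPM per kilobase, the highest level of all listed genes with the union of exons. With the main transcript it was at 124.0 and *Acsl5* at 124.4. *Bdh1* had 150 CPM in line 1, beside 96.9 and 102 CPM in the other lines.

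The lines could also be compared for these genes by chromosome. *Acsl4* and *Hsd17b10* lie on the X chromosome, and both were highest in line 3. The 310 X-linked genes of at least 5 CPM outside the lists had median deviations of -0.26, -0.16 and 0.47 in lines 1, 2 and 3, and 71.6% of them were highest in line 3. On chromosome 5, 4 of 5 pathway genes of at least 5 CPM were highest in line 1 (*Crot*, *Acads*, *Acad10* and *Acox3*), as *Hadha*, *Hadhb* and 87.7% of the 611 genes of that chromosome outside the lists were, and the exception was *Cd36*. Such a tally also arose where the chromosome hardly moved. On chromosome 2 all 4 pathway genes (*Crat*, *Ivd*, *Slc27a4* and *Rxra*) were highest in line 3, beside 40.3% of 744 other genes with median deviations of -0.02, 0.01 and 0.02. On chromosome 3 it was 4 of 5 in line 3, beside 45.2% of 431 other genes. Genes named for their chromosome were chosen after their values were seen.

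**Figure D5:**
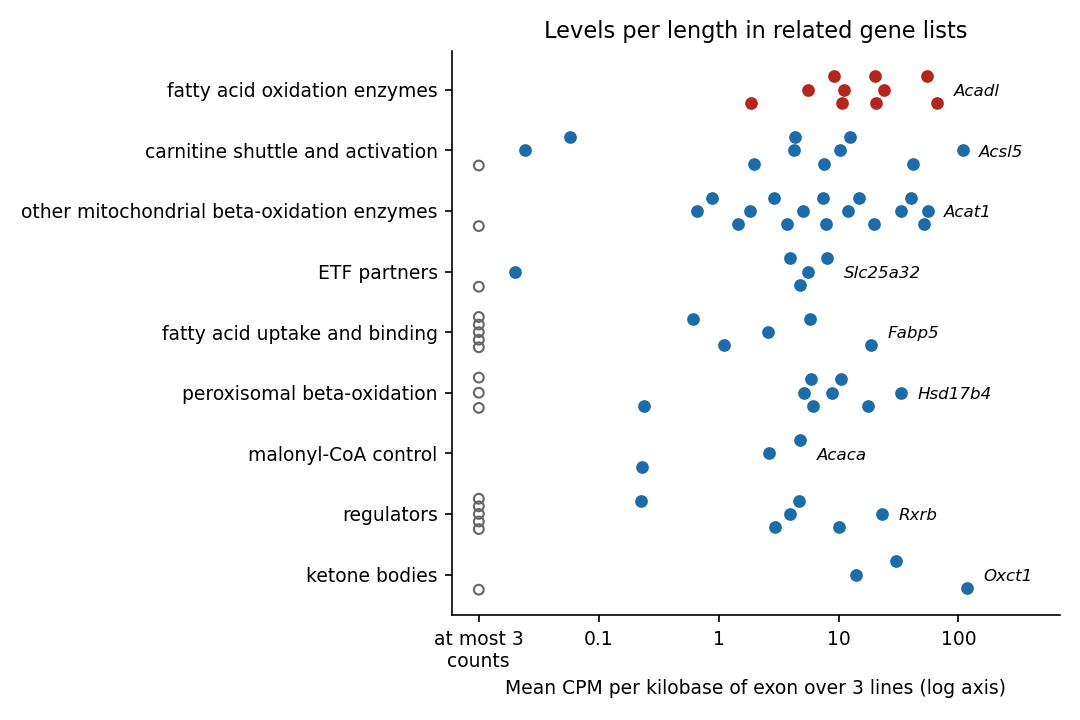
Mean level over 3 lines in CPM per kilobase of exon (log axis) for the 10 fatty acid oxidation enzyme genes (red) and 73 genes of 8 related lists (blue), with the highest gene of each list named. Open circles at the left stand for the 17 genes with at most 3 counts in every line, 5 of them regulators and 5 of them in fatty acid uptake and binding. Vertical offsets within a list only separate the points.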

How the data were processed

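Poly(A) RNA of 3 *Cdk6* KM/KM lines (genotype K43M, replicates 1 to 3, called lines 1 to 3) was sequenced as 50-base single-end reads. The authors trimmed reads with Trimmomatic, aligned them to GRCm38/mm10 with STAR and deposited raw counts per gene, made with featureCounts on Gencode M13. The paper names a TruSeq kit, the labels a SENSE mRNA-Seq kit. The treatment of strand and of reads with several matches is not given in the sources used here. The table holds 6 other sample columns, which were not used, so no genotypes were compared. It holds 0 rows that name no gene.

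Members were found by Ensembl identifier. Of 50686 identifiers, 50376 were matched to symbols and 50462 to gene models of Gencode M21, the same assembly, from which lengths were taken. Members and gene lists were chosen with earlier results of these data known.

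TMM factors from edgeR 4.0.16 in R 4.3.3 scaled the counts to CPM, and spreads were taken on log2(CPM + 1). The filter was a sum of 10 counts over the lines, which 13974 genes passed. A chi-square test set the 3 counts of each gene against the scaled library sizes, adjusted by Benjamini-Hochberg over these genes (threshold 0.05). It measures differences between these lines only. No 2 libraries were duplicates, since each pair differed at 6102 or more genes. Level per length is CPM per kilobase of the union of exons. Under every length used, all counts of a gene were divided by that length. Named genes are all 10 members, their paralogs and, from each list, the highest per length, the most variable with a mean of at least 5 CPM, and those with at most 3 counts in every line. Some genes of this rule are not reported here.

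The alternatives tried were size factors of DESeq2 1.42.0, no scaling beyond library size, other filters on low counts, a pseudocount of 0.1 CPM, a total without mitochondrially encoded genes, the main transcript as length, edgeR dispersions and leaving out each line. Length as 50-base stretches found in no other gene, the 1.5-fold limit and the chromosome medians were added after the data were seen. Python 3.11.15, numpy 2.4.6, pandas 2.3.3 and scipy 1.17.1 were used. Of the statistics, only the chi-square test was tried on simulated counts, which held counting noise and a set change in some genes. Limits cover counting error only.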

Additional observations from a re-analysis of the deposited data

How the results depend on the processing

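Of 161 recomputed values, 143 kept their direction and their side of the threshold or moved by less than the SD. DESeq2 size factors, library size alone, other filters on low counts, the pseudocount of 0.1 CPM and the total without mitochondrially encoded genes changed no call. Leaving out single lines moved the median SD of the 10 genes from 0.145 to between 0.0576 and 0.150 (0.0922 without line 1), and the number of members that differed from 7 to between 3 and 7 (4 without line 1). Without line 1, the chi-square calls of *Cpt2*, *Acadl* and *Hadhb* were lost, and without line 3 those of *Cpt1a*, *Acadm*, *Acadl* and *Acadvl*. Over all alternatives the adjusted p ran from 2.10e-86 to 0.578 for *Cpt1a*, 4.83e-07 to 0.961 for *Cpt2*, 8.06e-05 to 0.188 for *Acadm*, 3.89e-05 to 0.102 for *Acadl*, 1.52e-07 to 0.946 for *Acadvl* and 1.64e-07 to 0.183 for *Hadhb*. *Hadha* kept its call and the 3 electron transfer genes gained none. The mean of *Etfa* was 100.3 and 101.2 CPM without lines 2 and 3, a shift beyond its very small SD.

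The median level over the 10 genes was 15.7 CPM per kilobase with the union of exons, 22.8 with the main transcript and 27.8 with stretches found in no other gene. The ratio of *Hadha* to *Hadhb* was 12.9, 8.70 and 3.26 under these lengths, and that of *Etfa* to *Etfb* 2.698 and, with the last, 0.911. No paired analysis was possible because all samples are of 1 genotype. The edgeR dispersions give no count of calls, and the median biological coefficient of variation stands in their place. Sequence shared with pseudogenes or overlapping genes limits *Hadhb*, *Etfb* and *Acadvl*, and the lowest count of a member, 226 for *Hadhb* in line 2, sets the depth limit.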
